A study of Homo sapiens and Mus musculus with 74 samples.

Results

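The proteins of the nuclear pore complex were examined in kidney and brain of mice that lack Rpl41, the gene for a very small ribosomal protein that lies at the interface of the subunits. The 30 genes were those of a list of nucleoporin symbols, and each was represented by the transcript that encodes its longest protein in the GENCODE M21 annotation (GRCm38), from 22484 genes with a coding transcript in the mouse count table. The rule used no measured value, although the list was chosen with earlier results of these data known. The question was whether the change in RNA and in ribosome footprints upon RPL41 loss is related to protein length among subunits of 1 complex.

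The nuclear pore complex is a channel through the nuclear envelope, built from many copies of each nucleoporin. The Y complex forms the outer rings on both faces, the inner ring lines the membrane, and transmembrane proteins anchor the structure. Proteins with repeats of phenylalanine and glycine (FG) fill the channel and bind the importins and exportins that carry cargo, while filaments reach into the cytoplasm and a basket into the nucleus. The subunits assemble together yet span a wide range of lengths.

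WT mice (Rpl41+/+) and Rpl41 KO mice (Rpl41-/-) had the C57BL/6J background, and the deletion had been made with CRISPR-Cas9 in zygotes and spans the coding sequence in every cell of the animal. For Ribo-seq the animals were males of 10 weeks. RNA-seq and Ribo-seq were available for kidney and brain, and disome-seq, which sequences the footprints of 2 stacked ribosomes, for kidney, with 3 libraries per genotype. The p-values measure the spread between these libraries, and in whole tissue a change in the share of a cell type cannot be told apart from a change in RNA per cell.

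A kidney RNA-seq library held 44998381 to 55077048 counts, and a brain RNA-seq library 84433838 to 123745890. Ribo-seq libraries were shallower, with 11036643 to 42452425 counts for kidney and 9498663 to 35881929 for brain, and disome-seq libraries held 1187636 to 3018963. The count of the Rpl41 transcript was 3 to 12 in KO and 3695 to 12199 in WT RNA-seq libraries, in the direction of the labels in every library. RNA-seq reads lay toward the 3′ end: over 216 genes, a transcript model that covers only the 3′ end and a median 14.8% of the full length held a median 37.2% to 51.2% of the full transcript's count in WT kidney libraries and 49.7% to 64.8% in KO kidney libraries. The 2 KO kidney RNA-seq libraries with the highest values, replicates 2 and 3, also had the highest mitochondrial rRNA shares, at 1.76% and 1.67% of counts against 0.436% to 0.962% in WT, and the part of this difference in the RNA results was not tested.

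The proteins ranged from 322 amino acids in Sec13 to 3053 in Ranbp2, and 13 members reached 1000 amino acids. FG pairs encoded by each transcript were counted, because the repeats set the channel proteins apart. Nup214 encoded 46, Nup98 41, Nup153 29, Pom121 24 and Ranbp2 20, while Nup37 and Sec13 encoded none. The codons of such pairs are shown in capitals for 3 FG proteins of over 1000 amino acids, of which the footprints of Ranbp2 and Nup98 rose in KO kidney and those of Pom121 did not pass the test. Each is a 30-base window of an exon from the GRCm38 genome, written 5′ to 3′ on the coding strand.
Ranbp2, chr10:58488575-58488604, plus strand, exon 25 of 29: gaaaacaagcctgttttgTTTGGATTTGGA
Nup98, chr7:102195828-102195857, minus strand, exon 2 of 33: tttaacaaatcaTTTGGAacccccTTTGGG
Pom121, chr5:135381881-135381910, minus strand, exon 11 of 13: tctgcctcaaagcctgtcTTTGGCTTTGGA

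In WT kidney, footprints per kilobase of coding sequence were highest for the small shared subunits. Sec13, which also belongs to the COPII coat and to a nutrient-sensing complex, had 40.4 ± 2.93 CPM per kilobase (SD, n = 3). Seh1l, its relative in the Y complex, had 15.2 ± 0.26 and Rae1, an mRNA export factor on the cytoplasmic side, had 15.0 ± 0.67, so these neighbors in the order did not differ beyond their spread. The lowest values were 1.34 ± 0.20 for Nup107 and 1.58 ± 0.10 for Nup188, of the Y complex and the inner ring. Their intervals of mean ± SD overlapped, but neither mean lay within the other interval. In WT brain, Sec13 had 18.5 ± 1.70 and Nupl1, a channel FG protein also called Nup58, had 16.1 ± 0.49, while Nup160 was lowest at 1.19 ± 0.11. The Nupl1 value is uncertain, because its only annotated transcript is a nonsense-mediated decay model, described with the RNA values.

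WT kidney and WT brain differed in many members. By edgeR's quasi-likelihood test, 19 of 30 members differed in footprints at an adjusted p under 0.05, 12 of them higher in kidney, against a background of 75.6% of genes called. The 3 largest differences toward kidney were Nup43 at a log2 difference of 1.36 (SE 0.21, adjusted p = 5.5e-05), Sec13 at 1.25 (SE 0.13, adjusted p = 8.4e-07) and Nup50 at 1.04 (SE 0.15, adjusted p = 2.1e-05). Nup43 is a Y complex subunit and Nup50 a mobile basket protein that helps release import cargo. Toward brain, the largest were Nupl1 at -1.63 (SE 0.12, adjusted p = 3.3e-08), Pom121, a transmembrane FG protein, at -1.27 (SE 0.13, adjusted p = 6.6e-07) and Ndc1, a membrane anchor, at -0.59 (SE 0.19, adjusted p = 0.013). The Nupl1 differences, in footprints and in RNA, are uncertain because of its transcript model.
In RNA, 13 members differed, 10 of them higher in kidney, against a background of 73.0%. Sec13 at 1.40 (SE 0.15, adjusted p = 1.7e-05), Nup50 at 1.29 (SE 0.15, adjusted p = 4.1e-05) and Seh1l at 1.14 (SE 0.15, adjusted p = 9.0e-05) led toward kidney. Nupl1 at -1.81 (SE 0.46, adjusted p = 0.0062), Nup35, a membrane-binding subunit of the inner ring, at -1.47 (SE 0.25, adjusted p = 0.00045) and Pom121 at -0.87 (SE 0.15, adjusted p = 0.00044) were the members higher in brain. The members' shares of calls, in RNA and in footprints, were below those of all genes.

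Loss of RPL41 raised the kidney footprints of 9 nucleoporins, all among the 13 with at least 1000 amino acids, while none fell. Among genes tested, 9.88% were called and 5.97% were called higher, with 21.4% higher among genes of at least 1000 amino acids and 3.4% among shorter ones. The median log2 fold change was 0.48 over the 13 long members and 0.03 over the 17 shorter ones. Over all genes it was -0.02, with 0.23 for those of at least 1000 amino acids and -0.05 for shorter ones. In 16 members all KO libraries exceeded all WT libraries, against 17.0% of genes. Of these 16, 12 were long, and 37.1% of genes of at least 1000 amino acids had that order. In 3 members the order was the opposite, against 16.0% of genes.

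The largest rise was that of Ranbp2, the giant filament protein of the cytoplasmic face that binds Ran and acts as a SUMO ligase (chr10:58446922-58494356). Its kidney footprints were 51.7, 55.8 and 57.5 CPM in WT and 77.9, 98.9 and 103 CPM in KO, a log2 fold change of 0.77 (SE 0.13, adjusted p = 0.0076 from edgeR). The groups did not overlap, and KO replicate 1 was the lowest KO library. The 12 annotated Ranbp2 pseudogenes together held at most 8.94% of the Ranbp2 count in any library, and since reads mapping to several places were kept, the division between them is uncertain.
Nup214, an FG protein of the same face that anchors export factors, had 13.2, 12.7 and 10.9 CPM in WT and 17.0, 19.9 and 20.6 in KO, a log2 fold change of 0.65 (SE 0.12, adjusted p = 0.0094). Nup98, whose precursor is cleaved into the FG protein Nup98 and the Y complex subunit Nup96 (chr7:102119398-102210176), had 29.1, 25.9 and 26.2 CPM in WT and 34.4, 43.4 and 44.6 in KO, a log2 fold change of 0.60 (SE 0.12, adjusted p = 0.014). In both genes all KO libraries were above all WT libraries and KO replicate 1 was again nearest to WT.

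In the basket, Tpr, the coiled-coil protein that forms its struts, had 39.7, 39.4 and 36.2 CPM in WT and 52.0, 60.4 and 59.7 in KO, a log2 fold change of 0.58 (SE 0.11, adjusted p = 0.012). Nup153, the FG protein that docks the basket, had 19.1, 15.9 and 17.4 CPM in WT and 21.4, 26.8 and 24.7 in KO, at 0.48 (SE 0.12, adjusted p = 0.028). Both genes showed separate groups, with the smaller gap in Nup153. Nup50, the short basket protein of 466 amino acids, had a log2 fold change of 0.08 (adjusted p = 0.684).

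In the Y complex the called members were long ones, although Nup160, of 1402 amino acids, was not called. Ahctf1, also called Elys, which brings pore assembly to chromatin, had 21.4, 17.8 and 19.9 CPM in WT and 25.8, 29.7 and 32.6 in KO, at 0.58 (SE 0.12, adjusted p = 0.015). Nup133, a stalk subunit, had 8.62, 7.46 and 7.05 CPM in WT and 9.28, 11.2 and 10.8 in KO, at 0.44 (SE 0.12, adjusted p = 0.045). The groups were separate in both, although the Nup133 call was the least secure, as it was kept under only 2 of 13 alternative analyses. Nup85, a short-arm subunit of 656 amino acids, had the lowest value of all members at -0.30 (SE 0.11, adjusted p = 0.117), with 8.29, 7.80 and 7.86 CPM in WT and 6.52, 6.69 and 6.31 in KO, which did not overlap. Sec13, the shortest member, gave 40.2, 35.8 and 41.1 CPM in WT and 38.5, 40.4 and 38.9 in KO, overlapping groups with a log2 fold change of 0.01 (adjusted p = 0.969). Nup37, of the same complex, had -0.12 (adjusted p = 0.713).

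In the inner ring, Nup155 had 12.0, 11.0 and 11.2 CPM in WT and 15.0, 17.5 and 17.2 in KO, at 0.54 (SE 0.11, adjusted p = 0.013). Nup205, a large scaffold, had 14.0, 13.9 and 13.4 CPM in WT and 17.3, 18.5 and 20.5 in KO, at 0.46 (SE 0.10, adjusted p = 0.023). The groups were separate in both. Nup188, its paralog, had separate groups too but did not pass the test at 0.36 (SE 0.11, adjusted p = 0.0618), and the short subunit Nup35 had -0.01 (adjusted p = 0.975). None of the 3 central channel proteins and none of the 3 transmembrane proteins passed it.

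Pom121, of 1200 amino acids, was the long member outside this pattern. Its kidney footprints were 8.15, 7.06 and 7.79 CPM in WT and 7.90, 7.14 and 5.94 in KO, a log2 fold change of -0.17 (adjusted p = 0.454) with overlapping groups. The other 3 long members that were not called, Nup188, Nup160 and Nup210, had log2 fold changes of 0.36, 0.37 and 0.33, each with separate groups and KO the higher.

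**Figure D1:**
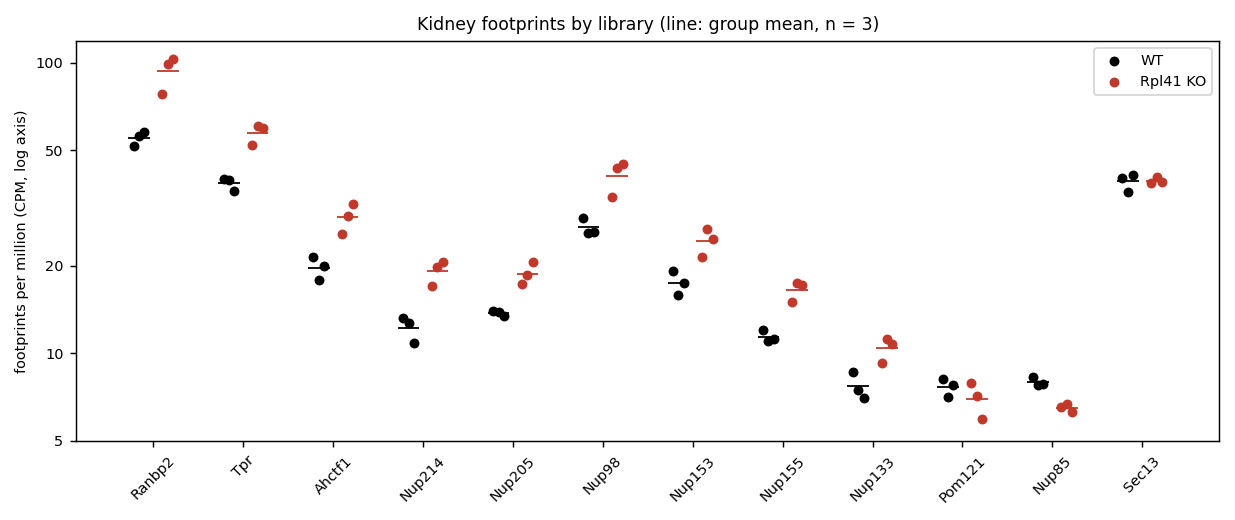
Kidney footprints in CPM (log axis) for the 9 called members and for Pom121, Nup85 and Sec13. Points are libraries, black for WT and red for Rpl41 KO, and lines are group means of 3 libraries; the 9 called members have all KO points above all WT points, while those of Pom121 and Sec13 overlap.

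The calls rested on KO replicates 2 and 3. Without KO replicate 2, 1 member and 517 of 72491 transcripts were called by edgeR, and without KO replicate 3 no member and 285 of 72679 transcripts were, although the log2 fold changes of the 9 members stayed positive in every alternative analysis. Those 2 libraries were the deepest of kidney Ribo-seq and KO replicate 1 was the shallowest. With all libraries thinned to the smallest total, 8 members and 2970 of 66081 transcripts were called. The same 2 libraries had the lowest mitochondrial rRNA shares of kidney Ribo-seq, at 0.208% and 0.185% of counts. The share was 0.504% in KO replicate 1 and 0.357% to 0.538% in WT, and its part in the calls was not tested. Counts of cell type markers also moved with genotype in kidney footprints: the summed level of 4 proximal tubule markers lay between 3115 and 3623 CPM for WT and between 4138 and 4968 for KO, and that of 4 immune markers 75.2 to 109 in WT and 132 to 153 in KO. Loop and distal tubule markers (1111 to 1325 CPM for WT, 1591 to 1842 for KO), endothelial markers (31.1 to 42.6, 47.6 to 52.5) and markers of dividing cells (3.47 to 5.71, 6.09 to 6.62) were also higher in all KO libraries, and collecting duct markers were lower (110.04 to 127, 98.3 to 108). Kidney RNA of loop and distal tubule markers was lower in KO (1163 to 1288 CPM) than in WT (1353 to 1588). Endothelial markers were lower too, at 8.49 to 13.4 against 14.1 to 19.6, and so were podocyte markers, at 13.6 to 14.6 against 22.0 to 29.3. Ttr, listed as a choroid plexus marker, was higher in KO kidney RNA, at 58.2 to 78.8 against 23.7 to 43.5. Proximal tubule markers were higher in KO RNA (3194 to 3664 against 2916 to 3068), and immune, collecting duct and dividing cell markers overlapped. The part of these markers in the rise of the nucleoporins was not tested.

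Across the 30 members, the kidney footprint change rose by 0.24 log2 units per doubling of protein length (Spearman's rho 0.84 over 30 members), against 0.12 over 13454 genes (rho 0.42). The points of such a correlation share the same libraries, so it is given as a description. Transcript length gave the same rho of 0.84 and is itself tied to protein length (rho 0.89), so they cannot be told apart here. The number of FG pairs gave 0.32, 3′ UTR length 0.11, coding GC content -0.29 and the WT footprint level 0.45. Among the long members, the 5 FG proteins had 4 calls and the 8 others had 5. The slope was also 0.24 without the longest and the shortest member, and with Gm49336 in place of Nupl1, an alternative described with the RNA values.

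The members followed the length classes of all genes but lay above them. In kidney footprints the median change of the 5 members from 2000 amino acids upward was 0.58 on the log2 scale, against 0.38 over 384 genes, and the 5 members of 1000 to under 1500 amino acids had 0.44 against 0.18 over 1141 genes. Below 500 amino acids the medians were -0.05 for 8 members and -0.12 for 7289 genes. Whether the members differ from genes of like length was not tested.

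**Figure D2:**
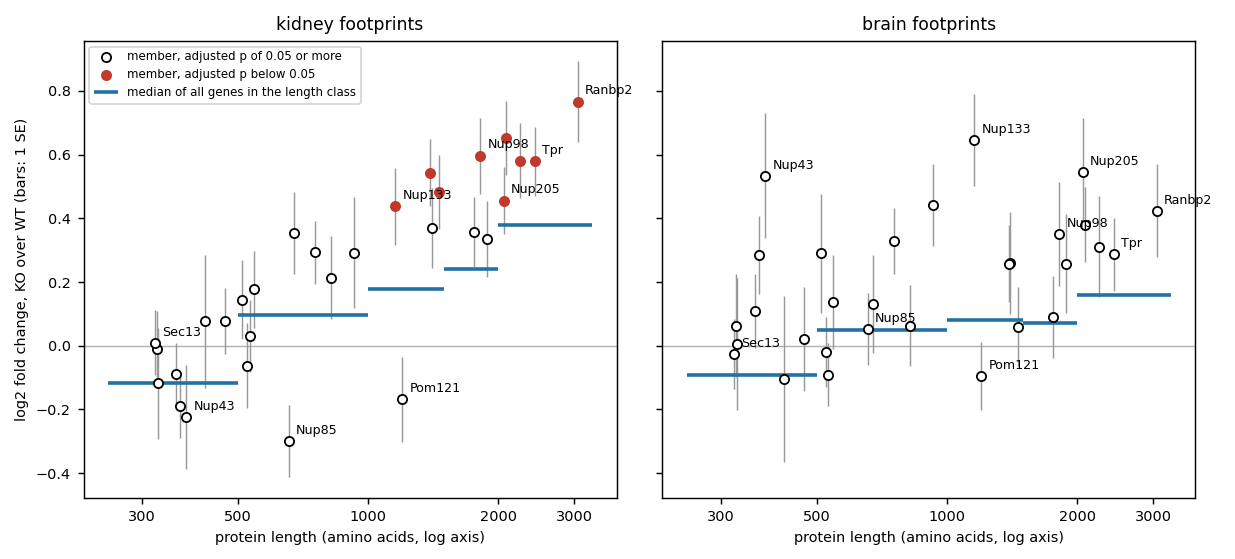
Log2 fold change of footprints, KO over WT, against protein length in amino acids (log axis) for the 30 members in kidney and in brain. Red points have an adjusted p below 0.05, bars are 1 SE, and blue lines are medians of all genes per length class; in kidney the called members sit at 1155 amino acids and above, and in brain no member is called.

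The slope was also taken in each library, from the deviation of log2 CPM from the mean of its tissue and assay. In kidney footprints the WT slopes lay between -0.17 and -0.086 and the KO slopes between 0.035 and 0.18, so the genotypes did not overlap. KO replicate 1 was the library at 0.035. In brain footprints the WT slopes lay between -0.14 and 0.0074 and the KO slopes between -0.033 and 0.092, and the genotypes overlapped. In kidney RNA the ranges were -0.013 to 0.0095 in WT and -0.059 to 0.039 in KO, also overlapping.

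**Figure D3:**
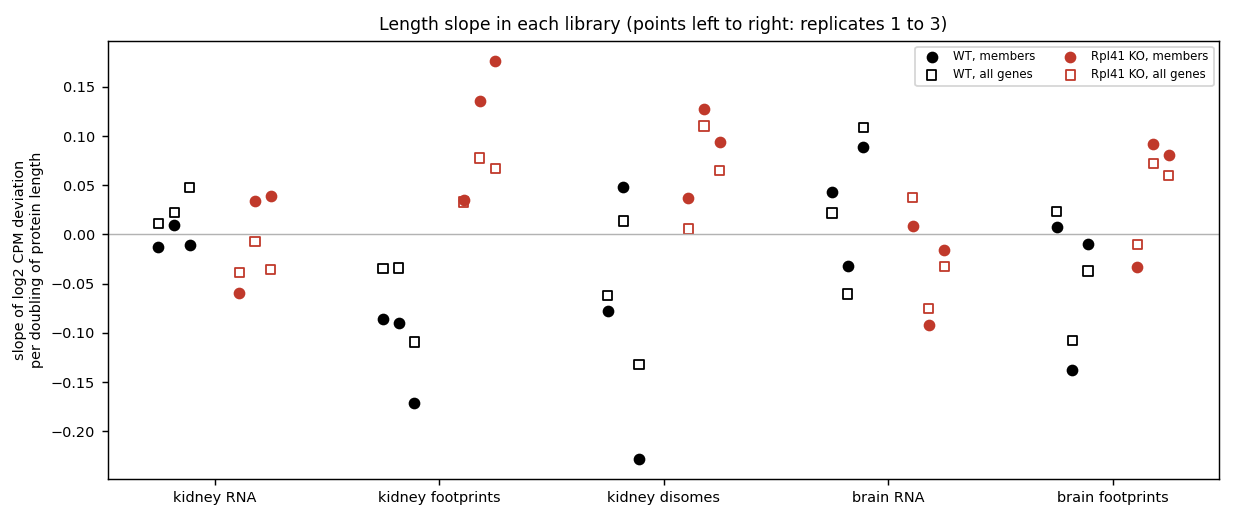
Slope of the log2 CPM deviation per doubling of protein length in each library, over the members (filled circles) and over all genes (open squares), with WT in black and Rpl41 KO in red. In kidney footprints the KO circles, from 0.035 to 0.18, all lie above the WT circles. The circles of the genotypes overlap in RNA and in brain footprints. The squares of kidney footprints do not overlap, with WT between -0.11 and -0.034 and KO between 0.033 and 0.078. Those of kidney RNA do not overlap either, with WT between 0.011 and 0.047 and KO between -0.039 and -0.0068.

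Of 202 transcript models of the members in the table, 188 were tested in kidney footprints, and 35 were called higher and none lower, against 4.75% higher among all transcripts tested. They included 9 of 14 tested models of Tpr, 6 of 8 of Nup98 and 4 of 9 of Nup153, but only 2 of 10 of Nup214 and 1 of 3 of Ranbp2, whose other models had 0.32 and 0.34. A 2609-base model of the Ranbp2 5′ end held 16.4% to 18.4% of the full footprint count in WT kidney. In KO kidney it held 11.5% to 14.8%, so it rose less than the full transcript. In brain its shares were 15.6% to 19.5% for WT and 11.8% to 13.6% for KO. The reason was not tested. Models of 1 gene share reads, so they are not independent.

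In kidney RNA no member was called by edgeR or by DESeq2, against a background of 0.00719% of genes called by edgeR. None had an unadjusted p under 0.05, against 14.1% of genes. The median log2 fold change was 0.02 over the members and 0.10 over all genes. The slope on protein length was 0.01 over the members (rho -0.09), or -0.03 with Gm49336 in place of Nupl1. Over 13906 genes it was -0.06 (rho -0.15). Ranbp2 RNA was 23.2, 20.5 and 26.1 CPM in WT and 21.2, 24.6 and 21.7 in KO, with overlapping groups. Nup98 RNA was 9.40, 11.1 and 9.93 CPM in WT and 9.68, 9.57 and 8.61 in KO, a log2 fold change of -0.13 (adjusted p = 0.64). The highest member was Nupl2, a filament protein, at 0.44 (adjusted p = 0.40).
The lowest was Nupl1 at -1.93 (SE 0.99, adjusted p = 0.32), with counts of 35, 11 and 48 in WT and 22, 2 and 1 in KO. Its single transcript in the annotation is a nonsense-mediated decay model that reaches into a neighboring gene, and Gm49336 is the protein-coding model at the same locus, so the Nupl1 value is uncertain. Without KO replicate 1 the fit called Nupl1 lower, but that fit called 12466 of 73294 transcripts, against 7 of 70545 with all libraries. Scaling by library totals moved the median of all transcripts in kidney RNA from -0.03 to -0.19.

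In brain RNA no member was called by either tool, against 0.00636% of genes by edgeR, and none had an unadjusted p under 0.05, against 5.0% of genes. The slope on length was -0.07 per doubling over the members (rho -0.67 over 30 members) and -0.05 over all genes (rho -0.28). It was -0.040 without KO replicate 2, -0.044 without WT replicate 3 and -0.044 with counts summed per gene. The share of counts at the 3′ end was 45.5% and 43.3% in KO replicates 2 and 3 and 31.0% in KO replicate 1, against 28.6% to 39.3% in WT brain, and its part in the slope was not tested. Nup37 was the highest member at 0.28 (adjusted p = 0.898), with 0.914, 0.891 and 0.812 CPM in WT and 1.04, 1.11 and 1.04 in KO, and Nupl1 was the lowest at -0.40 (adjusted p = 0.898). Ranbp2 had -0.23 (adjusted p = 0.898) and Sec13 0.26 (adjusted p = 0.898). Slopes of single libraries lay between -0.032 and 0.089 for WT and between -0.092 and 0.0083 for KO, and the genotypes overlapped. Astrocyte markers were higher in all KO brain RNA libraries (276 to 286 CPM against 226 to 254 in WT). So were microglia markers (23.4 to 25.8 against 18.5 to 21.8) and the choroid plexus marker Ttr (339 to 414 against 280 to 336). Neuron and oligodendrocyte markers overlapped, and the part of these markers in the brain RNA results was not tested.

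**Figure D4:**
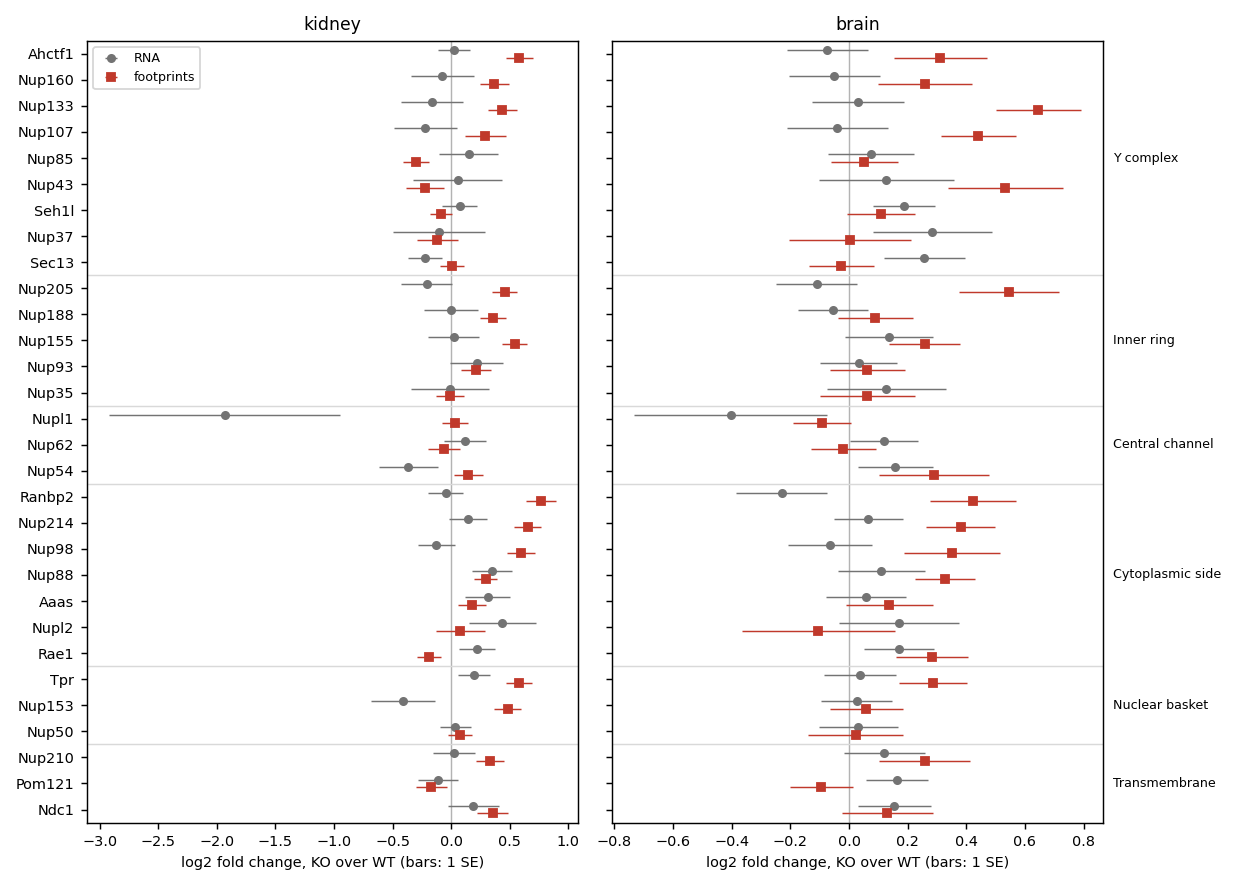
Log2 fold change, KO over WT, of RNA (gray circles) and footprints (red squares) for the 30 members in kidney and brain, by role and by protein length within a role, with bars of 1 SE. The panels have different horizontal scales; in kidney the footprint value of the longest member of the Y complex, the inner ring, the cytoplasmic side and the basket lies to the right of its RNA value.

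In brain footprints no member was called by edgeR, against 0.0346% of genes, and 9 members had an unadjusted p under 0.05, against 14.5% of genes. DESeq2 called Nup133 among 388 of 81112 transcripts. The median log2 fold change was 0.20 over the members and -0.03 over all genes, and 25 of 30 values were positive. Nup133 had the highest value at 0.65 (SE 0.14, adjusted p = 0.19), with 13.7, 11.6 and 11.4 CPM in WT and 15.6, 22.3 and 19.3 in KO, which did not overlap. Nupl2 had the lowest at -0.11 (adjusted p = 0.902).
Ranbp2 had 53.8, 44.3 and 46.7 CPM in WT and 49.5, 70.9 and 73.9 in KO, a log2 fold change of 0.42 (adjusted p = 0.29). Nup98 had 19.5, 17.5 and 16.9 CPM in WT and 16.4, 25.0 and 27.2 in KO, at 0.35 (adjusted p = 0.40). In both genes KO replicate 1 lay within or below the WT range and the other two KO libraries above it. The slope on length was 0.09 (rho 0.49), against 0.08 over all genes. It was 0.055 without WT replicate 2 and 0.13 without KO replicate 1. Red cell markers were lower in all KO brain footprint libraries, at 175 to 223 CPM against 322 to 930 in WT. Neuron, astrocyte and oligodendrocyte markers overlapped there, and the part of the red cell markers was not tested.

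The difference between tissues in the footprint change was tested directly. No member was called in the fit of tissue by genotype for footprints, against 0.141% of genes, and 4 had an unadjusted p under 0.05, against 9.44% of genes. These were Rae1 at -0.48, Nup43 at -0.77 and Nup85 at -0.36, lower in kidney than in brain, and Nup153 at 0.41, higher in kidney, with adjusted p-values from edgeR of 0.415 for Rae1, 0.440 for Nup43, 0.60 for Nup85 and 0.610 for Nup153. DESeq2 called no member either. In RNA 0.0% of genes were called by edgeR, no member by either tool, and only Sec13 had an unadjusted p under 0.05, at -0.53. Kidney and brain footprint changes had a rho of 0.54 over the 30 members.

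Translation efficiency (TE) was tested as the change in footprints relative to RNA in a single model. In kidney 0.0% of genes and no member were called by edgeR, while 9 members had an unadjusted p under 0.05, against 17.6% of genes. DESeq2 called Nup98 and Ranbp2, and it called 4089 of 89685 transcripts. Ranbp2 had 0.80 (SE 0.19, adjusted p = 0.12 from edgeR) and Nup98 0.71 (SE 0.20, adjusted p = 0.13). Nupl1 was highest at 1.87 (adjusted p = 0.25), which rests on its few RNA counts, and Nup85 lowest at -0.44 (adjusted p = 0.42). The slope was 0.23 over the members and 0.15 over all genes.
In brain TE 0.0% of genes and no member were called by edgeR, 4 members had an unadjusted p under 0.05 against 5.29% of genes, and DESeq2 called no member. Nup205 was highest at 0.70 (adjusted p = 0.895) and Sec13 lowest at -0.25 (adjusted p = 0.895). The slope was 0.16, against 0.13 over all genes. The shift of RNA-seq reads toward the 3′ end in KO kidney enters these ratios, and its part was not tested: for Nup214, a 354-base model of the 3′ end held 26.6% to 37.5% of the full kidney RNA count for WT and 38.4% to 60.8% for KO, but at most 2.12% of the footprint count.

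In kidney disome-seq, 23 members passed the filter on low counts, all 13 long ones and 10 of the 17 shorter ones, so 7 short members have no value. None was called by edgeR or DESeq2, against 0.154% of genes by edgeR, and 4 had an unadjusted p under 0.05, against 11.2% of genes. Nup107, a Y complex stalk protein of 926 amino acids, had the highest value at 0.89 (adjusted p = 0.39), with counts of only 10, 13 and 4 in WT and 19, 10 and 7 in KO, and Seh1l the lowest at -0.65 (adjusted p = 0.56). Nup98 had 24.5, 25.5 and 15.4 CPM in WT and 31.6, 34.4 and 35.1 in KO, separate groups with a log2 fold change of 0.55 (adjusted p = 0.31). Relative to kidney footprints, 0.0% of genes and no member were called by edgeR, none had an unadjusted p under 0.05, DESeq2 called none, and Nup98 had -0.03 (adjusted p = 1.00). Nup107 was highest at 0.63 (adjusted p = 0.91) and Nup37 lowest at -0.95 (adjusted p = 0.86) on that measure.

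Partners of the pore were described for comparison. Of 34 transport receptors and Ran cycle genes, 6 rose and 1 fell in kidney footprints, against 5.97% of genes called higher and 3.91% lower, with a median log2 fold change of 0.18. Those that rose included Xpo5, the exporter of pre-microRNAs, at 0.45 (adjusted p = 0.018) and Rangap1, the Ran GTPase activator held at the pore by Ranbp2, at 0.45 (adjusted p = 0.023). The member that fell was Nutf2, the small importer of Ran, at -0.48 (adjusted p = 0.015), with 127 amino acids. Of 10 lamina and inner nuclear membrane genes, all under 1000 amino acids, 4 rose and 1 fell, where 3.4% of genes under that length were called higher. Lemd3 at 0.63 (adjusted p = 0.017) and the linker proteins Sun1 at 0.53 (adjusted p = 0.014) and Sun2 at 0.54 (adjusted p = 0.018) rose, as did Lbr, and Banf1, a DNA-binding protein of 89 amino acids, had -0.69 (adjusted p = 0.014). None of the 44 genes was called in kidney RNA, brain RNA or brain footprints by edgeR.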

How the data were processed

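The mouse table deposited by the authors holds whole-number read counts per transcript for 30 libraries. Per the paper's methods, the authors trimmed adaptors with cutadapt, removed rRNA reads, aligned with STAR to GRCm38 (mm10), kept reads with several alignments and counted with featureCounts. RNA-seq was made from poly(A) RNA. Replicates are separate columns. A human cell line table with 28 columns was not used here, because its columns could not be matched to samples.

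Each gene was represented by the transcript with its longest protein in GENCODE M21. The members and lists were chosen with earlier results of these data known. Named genes were Nup98, the 3 longest and 3 shortest members, the called members, and the highest and lowest in each comparison of genotypes; others, such as Pom121, Nup188 and Nup50, were named after their values were seen.

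Counts were filtered with filterByExpr, scaled by TMM and tested with the quasi-likelihood test of edgeR 4.0.16 in R 4.3.3, with Benjamini-Hochberg adjustment over all transcripts and a threshold of 0.05. TE, disome relative to footprints and tissue by genotype were interaction terms. CPM used TMM-scaled totals, and log2 CPM per library a prior count of 2. The code was tested on simulated counts, with 200 transcripts changed by 2 on the log2 scale. Of these, 100% were called in footprints of either tissue, 71.5% in kidney RNA and 88% in brain RNA. In TE 56% were called for kidney and 72.5% for brain, so a true change in RNA or TE can go uncalled. Alternatives were DESeq2 1.42.0, library totals, other filters, counts per gene, a replicate block and leaving out each library. Thinning, leaving out KO kidney RNA-seq replicates 2 and 3, and Gm49336 in place of Nupl1 were added after seeing the data. Counting error is larger in the shallow libraries, mainly disome-seq.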

Additional observations from a re-analysis of the deposited data

How the results depend on the processing

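The 9 members called in kidney footprints kept a positive change under all 13 alternatives, while the number called depended on single libraries: it was 6 to 11 under other settings and 0 to 10 when each library was left out in turn, with 1 without KO replicate 2 and 0 without KO replicate 3. The slope on length in kidney footprints was 0.22 to 0.24 under other settings and 0.21 to 0.27 with each library left out, and in brain footprints 0.055 to 0.13 and in brain RNA -0.10 to -0.040 with each library left out. Library totals changed the split over all transcripts in kidney footprints from 3573 higher of 5838 called to 1531 of 4074.

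Other counts that moved were those near 0. In kidney RNA 0 to 1 members were called with each library left out, in kidney TE 0 to 4, and in RNA tissue by genotype 0 to 1, the highest value in each coming without KO kidney RNA-seq replicate 1, where 12466 of 73294, 16331 of 91865 and 6444 of 96889 transcripts were called. DESeq2 called 2 members in kidney TE (4089 of 89685 transcripts) and 1 in brain footprints (388 of 81112), and keeping any transcript with at least 1 count gave 3 in brain footprints (1573 of 127174). The kidney RNA slope was -0.0374 with at least 10 counts in every library, 0.0539 with counts summed per gene, -0.0442 without KO replicates 2 and 3 together, and -0.0110 to 0.0701 with each library left out. The difference of medians between long and short members in kidney RNA, -0.12, became -0.0623 per gene, -0.173 with the replicate block and -0.0460 without those KO replicates. The cause was not tested.

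Same-numbered WT and KO libraries were not treated as pairs in the main fits. The correlations of their deviations ran from -0.07 to 0.04 in kidney footprints and from -0.28 to 0.42 in kidney RNA. In brain RNA they ran from -0.59 to 0.38. The labels do not say whether same-numbered libraries of different assays or tissues came from the same animal, and the main fits treat them as independent. With the replicate block, 8 members and 4010 of 75266 transcripts were called in kidney footprints.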
